A study of Mus musculus with 36 samples.

Results

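Supporting cells of the fetal mouse gonad were compared between XY and XX fetuses at 11.5 days post coitum (dpc), with 3 arrays per sex. The comparison takes 6 of the 36 arrays of the series, chosen by cell type, sex and stage as labelled, with no measured value used. Both sexes at 11.5 dpc carried Tg(Sry-EGFP)92Ei, a transgene in which Sry regulatory sequence drives a green fluorescent protein, and both were progeny of CD-1 mice. The gonads were collected from time-mated females and pooled by sex, trypsinised and stained with DAPI before sorting. Whether the 3 arrays of a sex stand for separate pools is not stated, so every p-value here reflects a spread from array to array that could be purely technical.

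Other arrays were used where they touch these genes. XY supporting cells at 12.5 and 13.5 dpc came from the line Tg(Sox9-cre/ERT2)1Msan/J on C57BL/6, with Sox9 as the reported gene. XX supporting cells at those stages kept the 11.5 dpc line and background. Germ cells of either sex at 11.5 dpc carried an Oct4 reporter and were progeny of C57BL/6NJ on a mixed background. The 11.5 dpc comparison is thus the supporting cell stage at which the sexes share the line and strain, and at the later stages sex cannot be told apart from line and strain.

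Supporting cells are the somatic lineage that gives rise to Sertoli cells in the testis and to granulosa cells in the ovary. In XY gonads the Y-linked gene Sry acts in these cells for a short time and turns on Sox9, and a loop between Sox9 and the secreted growth factor Fgf9 is known to keep the testis pathway going. In XX gonads Wnt4 and Rspo1, which act through beta-catenin, are known to promote the ovarian pathway, and each pathway is known to oppose the other. The comparison at 11.5 dpc addresses which genes differ between XY and XX cells near the start of this decision.

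Promoters of 3 genes are shown first because these genes are described below as higher in XY cells and carry different letters in the 250 bases before the transcription start. They are RefSeq sequences of GRCm38.p6, written 5′ to 3′ on the strand of the gene. Capitals mark AACAAT, the core letters of a SOX protein site, or TCAAAG, the core letters of a TCF/LEF site, each read on both strands.
Fgf9, chr14:58072436-58072685, plus strand: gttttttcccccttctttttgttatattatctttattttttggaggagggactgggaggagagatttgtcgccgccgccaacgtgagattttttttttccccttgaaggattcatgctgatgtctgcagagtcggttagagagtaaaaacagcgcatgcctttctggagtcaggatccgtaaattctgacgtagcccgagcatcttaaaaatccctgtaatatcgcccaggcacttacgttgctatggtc
Cbln4, chr2:172043467-172043716, minus strand: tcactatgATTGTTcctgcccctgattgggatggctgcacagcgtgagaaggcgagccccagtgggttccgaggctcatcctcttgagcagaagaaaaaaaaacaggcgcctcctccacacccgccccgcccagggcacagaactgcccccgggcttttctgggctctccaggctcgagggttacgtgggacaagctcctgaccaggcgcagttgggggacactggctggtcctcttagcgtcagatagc
Aldh1a1, chr19:20492333-20492582, plus strand: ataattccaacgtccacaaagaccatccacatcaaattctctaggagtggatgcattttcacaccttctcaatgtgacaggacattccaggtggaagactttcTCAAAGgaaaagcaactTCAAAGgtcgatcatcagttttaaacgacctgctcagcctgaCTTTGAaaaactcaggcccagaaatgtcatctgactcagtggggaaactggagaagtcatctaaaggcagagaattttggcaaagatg
The Fgf9 window held neither motif, the Cbln4 window held 1 SOX match and this Aldh1a1 window held 3 TCF/LEF matches. A second Aldh1a1 start in the table held none of these letters. A match describes letters only.

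The labelled sex and cell type were checked first. Sry, the testis-determining gene, read 11.84, 11.75 and 11.91 on the log2 scale in the XY arrays, against 8.21, 8.16 and 8.12 in the XX arrays. These XX readings lay above the median of all genes in the XX arrays (6.7822 to 6.8039). Both sexes carry the transgene with Sry regulatory sequence, and whether the probe set reads it was not tested. Eif2s3y, another Y-linked gene, read 9.15, 9.21 and 8.90 in the XY arrays, against 4.48, 4.46 and 4.49 in the XX arrays. Xist, which silences an X chromosome in XX cells, read 6.60, 5.38 and 6.85 in the XY arrays, against 11.26, 11.27 and 11.19 in the XX arrays. All 6 arrays matched their labelled sex. Wt1, a transcription factor of gonadal somatic cells, averaged 11.43 in XY and 11.61 in XX supporting cells, above 7.55 in XY and 7.65 in XX germ cells. The germ cell RNA helicase Ddx4 averaged 5.14 in XY and 5.03 in XX supporting cells, against 10.74 in XY and 10.76 in XX germ cells.

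Markers of other cell types were read in the same test. The summed level of 16 germ cell markers ran from 95.6 to 97.5 in the XY arrays and from 96.9 to 100 in the XX arrays, against 153.6 to 158.9 in XY and 155.9 to 158.3 in XX germ cells. None of 13 endothelial, 12 macrophage, 7 erythroid or 13 mesonephric and epithelial markers passed limma's test in either direction, and neither did any of 14 dissociation stress genes. At an unadjusted p under 0.05 these lists gave 0, 0, 0 and 1 marker (lower in XY), and 1 stress gene in each direction, where 4.46% of all autosomal genes were higher and 6.76% lower in XY at that threshold. The embryonic globin Hbb-y, which marks primitive red blood cells, read 7.52, 10.38 and 11.20 in the XY arrays, against 7.40, 7.63 and 7.81 in the XX arrays. It stood high in XY replicates 2 and 3 and did not pass (2.08 ± 1.04 SE, adjusted p = 0.472), and its part in the results was not tested. The summed level of the erythroid markers ran from 43.7 to 48.7 in XY and from 44.3 to 44.5 in XX. Members of the other marker lists that passed are named with the gene groups below. Log2 RMA values have no true zero, so no marker can be called absent.

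Across the autosomes, 703 of 19106 genes differed between XY and XX supporting cells at 11.5 dpc, which is 3.68% of those tested. Of these, 330 genes (1.73%) were higher in XY and 373 genes (1.95%) were lower in XY. X and Y included, 745 of 19938 genes (3.74%) were called. The call was a limma test at an adjusted p under 0.05, with p-values adjusted by Benjamini-Hochberg over all of these genes. In 324 of the 330 higher genes and 365 of the 373 lower genes the 3 XY values did not overlap the 3 XX values, while over all autosomal genes 6.24% lay wholly above and 15.6% wholly below. A log2 difference beyond 1 was reached by 155 of the higher and 162 of the lower genes, and one beyond 2 by 27 of the higher and 7 of the lower genes.

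The split between directions depended on how the arrays were scaled. The median difference over all genes was -0.06 on the log2 scale. With each array centred on its median the split was 418 higher and 315 lower, and with the row sets of the table aligned (described in the processing section) it was 748 higher (3.92%) and 406 lower (2.12%). Of the genes called here, 329 of the 330 higher and 328 of the 373 lower were called again with the row sets aligned. XY replicate 3 had the lowest XY value in 277 of the 373 lower genes (74.3%). The median level of those genes was 8.12, 8.09 and 7.56 in XY replicates 1, 2 and 3, and without XY replicate 3 the fit called 302 higher and 211 lower genes. Without XX replicate 2 it called 221 higher and 231 lower.

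**Figure D1:**
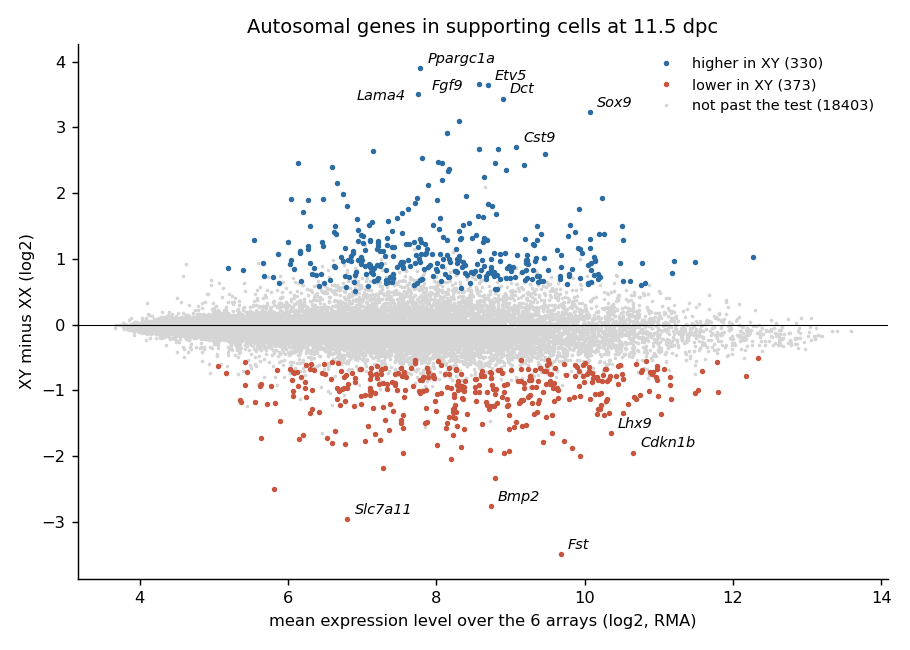
Difference between XY and XX supporting cells at 11.5 dpc (log2, vertical axis) against the mean level over the 6 arrays (log2, horizontal axis) for 19106 autosomal genes, each point 1 gene. The 330 genes higher in XY and the 373 genes lower in XY are coloured, and the largest differences are 3.90 for Ppargc1a and -3.49 for Fst.

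The genes of the FGF and SOX loop stood among the largest differences. Sox9, the transcription factor that directs Sertoli cell differentiation, read 11.75, 11.70 and 11.60 in the XY arrays, against 8.47, 8.20 and 8.70 in the XX arrays. The XY minus XX difference was 3.23 ± 0.17 (SE) on the log2 scale, 9.37-fold, with a limma adjusted p of 8.22e-12. Fgf9, its secreted partner, read 10.41, 10.51 and 10.26 in XY, against 6.76, 6.70 and 6.77 in XX. Each XY array lay far above each XX array for both genes, and the Fgf9 difference was 3.65 ± 0.16 (SE, limma adjusted p = 7.53e-13). Its XX values lay below the median of all genes in the XX arrays (6.7822 to 6.8039), so no fold is given. The XX level of Fgf9 was near the 6.49 of XY and 6.64 of XX germ cells. The Fgf9 promoter window shown above is the one with neither motif.

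Etv5, an ETS transcription factor known as a target of FGF signalling, read 10.60, 10.62 and 10.31 in XY arrays, against 6.62, 6.71 and 7.27 in XX arrays. Its difference was 3.64 ± 0.27 (SE, limma adjusted p = 5.41e-09). No fold is given, because the XX values of 6.62 and 6.71 lay below the median of all genes in the XX arrays (6.7822 to 6.8039). Germ cells of either sex read higher still for Etv5, at 11.81 in XY and 11.58 in XX. The summed level of the germ cell markers in each group is given above, and its part in the Etv5 difference was not tested.

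Of 13 FGF and ERK pathway genes, 5 were higher and 1 was lower in XY, against 1.73% and 1.95% of all autosomal genes. Their median difference was 0.49, against -0.06 over all genes. This list and those below were chosen with earlier results of these data known, so counts set beside these shares are no test. Besides Fgf9 and Etv5, the higher genes were Etv1, another ETS factor (1.62), and the feedback inhibitors Spred2 (1.02) and Spry4 (0.73). Spry4 read 6.94, 7.38 and 7.24 in XY, against 6.72, 6.36 and 6.29 in XX, and the groups were separated by less than the spread within either. Fgfr2, the receptor known to carry the Fgf9 signal in XY supporting cells, went the other way. It read 7.73, 7.83 and 8.0 in XY arrays, against 9.32, 9.40 and 9.38 in XX arrays, a difference of -1.51 ± 0.17 (SE) with an adjusted p of 4.01e-06. Fgfr1, another receptor, did not pass (0.31 ± 0.18, adjusted p = 0.646), and neither did the phosphatase gene Dusp6 (0.76 ± 0.28, adjusted p = 0.187).

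The largest log2 difference among autosomal genes was in Ppargc1a, a transcriptional coactivator known for mitochondrial biogenesis. It read 9.52, 9.79 and 9.86 in XY arrays, against 5.97, 5.81 and 5.71 in XX arrays, a log2 difference of 3.90 ± 0.15 (SE, adjusted p = 5.54e-14). The XX values lay below the median of all genes in the XX arrays (6.7822 to 6.8039), where RMA gives no detection call, so no fold is given. Dct, a melanin pathway enzyme also called dopachrome tautomerase, read 10.68, 10.90 and 10.26 in XY, against 7.19, 7.34 and 6.99 in XX. Lama4, a laminin chain of basement membranes, read 9.57, 9.63 and 9.29 in XY, against 6.17, 5.97 and 5.85 in XX. The 3 genes share a wide gap between the sexes, with every XY array at least 9.29 and every XX array at most 7.34.

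The 15 largest differences in each direction were taken from called autosomal genes whose groups do not overlap, so the lack of overlap comes from the choice. The others of the 15 above XX were Scrn1 (3.10), Mybl1 (2.91), Cst9 (2.70), Aldh1a1 (2.68), Plat (2.67), Ppp1r3c (2.64), Gatm (2.60), Vcan (2.53) and Trank1 (2.47). Cst9, a cystatin known in early Sertoli cells, read 9.99, 10.55 and 10.75 in XY, against 8.33, 7.83 and 7.03 in XX. Plat encodes tissue plasminogen activator, Gatm an enzyme of creatine synthesis and Vcan the matrix proteoglycan versican. Ppp1r3c encodes a glycogen-targeting subunit of a protein phosphatase, and Mybl1 a MYB family transcription factor.

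Among the 15 largest differences below XX, Fst came first. Fst encodes follistatin, a secreted inhibitor of activin, and read 8.05, 7.82 and 7.92 in XY arrays, against 11.46, 11.45 and 11.36 in XX arrays. The difference was -3.49 ± 0.16 (SE), 11.3-fold, with an adjusted p of 1.39e-12. Bmp2, a secreted ligand of the BMP family, read 7.26, 7.65 and 7.17 in XY, against 10.01, 10.16 and 10.16 in XX (difference -2.76 ± 0.18, adjusted p = 7.23e-10). Slc7a11, the cystine/glutamate transporter, read 5.06, 5.56 and 5.33 in XY, against 8.15, 8.26 and 8.42 in XX (difference -2.96 ± 0.20, adjusted p = 1.45e-09). In each of the 3 genes the gap between the sexes was several times the spread within a sex.

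The remaining 12 of these genes were less even. Ereg, which encodes the growth factor epiregulin, read 8.56, 8.12 and 6.19 in XY arrays, against 9.95, 9.95 and 9.96 in XX arrays, so XY replicate 3 stood well below the other XY arrays. Its adjusted p was 6.1e-04 in the 18-array fit and 0.0902 when only the 6 arrays compared were fitted. Adm, the gene of the vasodilator adrenomedullin, read 6.20, 6.44 and 5.91 in XY, against 8.07, 8.61 and 8.43 in XX. Foxd1, a forkhead transcription factor, read 7.79, 7.26 and 6.46 in XY, against 8.69, 9.69 and 9.27 in XX. The others were Gxylt2 (-1.96), Pde1a (-1.95), Cdkn1b (-1.95), Gabra4 (-1.92), Pcbd1 (-1.91), Pcdh18 (-1.87), Klhl5 (-1.85), Sprr2d (-1.99) and Vmn1r35 (-2.50). Sprr2d and Vmn1r35 belong to gene families with close copies, so their probes may read more than 1 gene, and the same is open for Cst9 and was not tested.

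**Figure D2:**
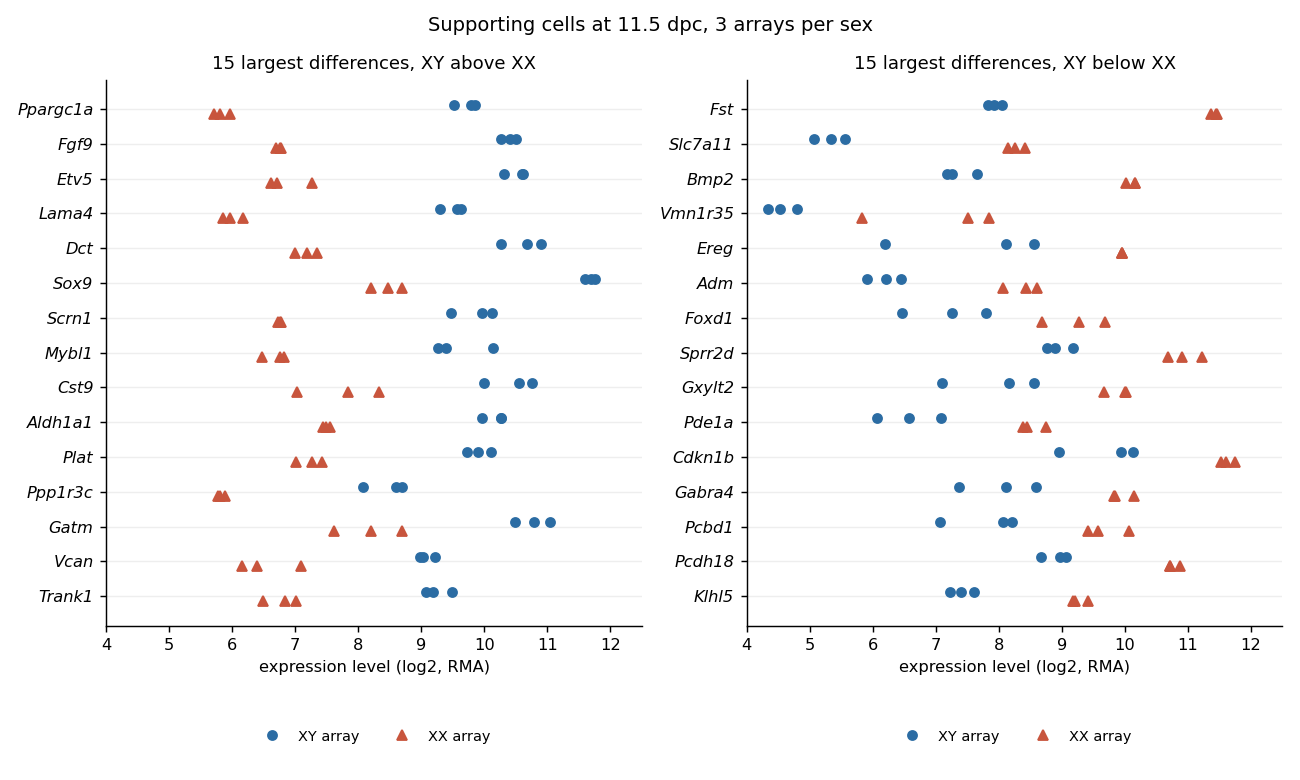
Expression level (log2, RMA, horizontal axis) in each of the 3 XY arrays (circles) and 3 XX arrays (triangles) for the 15 autosomal genes with the largest difference in each direction at 11.5 dpc, among called genes whose groups do not overlap. Sox9 lies between 11.60 and 11.75 in XY and between 8.20 and 8.70 in XX, and Ereg has 1 XY array at 6.19.

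The early Sertoli cell list held 31 measured autosomal genes, of which 12 were higher and 1 was lower in XY, with a median difference of 0.57. The shares over all autosomal genes were 1.73% higher and 1.95% lower. Because the list was chosen with earlier results of these data known, this comparison is descriptive only. The higher genes were Sox9, Fgf9, Etv5, Cst9, Cbln4 (2.35), Mro (2.20), Aard (1.92), Hsd17b3 (1.38), Mmd2 (1.36), Tesc (1.32), Ptgds (1.30) and Map2k6 (0.98). Cbln4, a secreted cerebellin, read 10.07, 10.40 and 9.88 in XY arrays, against 7.41, 8.05 and 7.84 in XX arrays. Its promoter is the one shown above with a SOX match. Ptgds, the prostaglandin D synthase of Sertoli cells, read 7.99, 8.39 and 8.92 in XY, against 7.12, 7.15 and 7.12 in XX, and its XY arrays spread more than its XX arrays. It was the only one of 8 measured prostaglandin pathway genes that passed.

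Several other genes of the Sertoli program did not pass at this stage. Amh, the anti-Müllerian hormone, read 5.77, 6.20 and 6.30 in XY, against 5.85, 5.79 and 6.05 in XX, and the groups overlapped (difference 0.19 ± 0.17 SE, adjusted p = 0.933). All Amh readings lay below the median of all genes in XY (6.7122 to 6.7623) and XX arrays (6.7822 to 6.8039), where RMA gives no detection call. Dhh, the Hedgehog ligand of Sertoli cells, differed by 0.51 ± 0.18 (SE, adjusted p = 0.184) with no overlap between the groups. Sox8, a paralogue of Sox9, differed by 0.41 ± 0.17 (SE, adjusted p = 0.3), and its relative Sox10 by 0.41 ± 0.16 (SE, adjusted p = 0.252). Dmrt1, a transcription factor that maintains testis fate, differed by -0.21 ± 0.18 (SE, adjusted p = 0.908).

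The p38 kinase module, known from mouse mutants to be needed for timely Sry expression, gave 1 call in each direction among 8 genes. All autosomal genes gave 1.73% higher and 1.95% lower. Map2k6, the kinase of p38, was higher in XY and read 7.46, 6.88 and 7.56, against 6.17, 6.30 and 6.50 in XX. Gadd45g, the activator of the module, was the 1 early Sertoli list gene that was lower in XY, at 9.0, 8.75 and 8.48, against 9.89, 9.30 and 9.70 in XX. Its difference was -0.89 ± 0.19 (SE, adjusted p = 0.00692), and it did not pass when only the 6 arrays were fitted (adjusted p = 0.0618). Map3k4, the kinase that Gadd45g activates, did not pass (0.31 ± 0.19, adjusted p = 0.682).

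Among 19 pregranulosa cell genes, 9 were lower and 1 was higher in XY, with a median of -0.61. The shares over all autosomal genes were 1.95% lower and 1.73% higher. This list too was chosen with earlier results of these data known. The lower genes were Fst, Bmp2, Cdkn1b, Lef1 (-1.55), Irx3 (-1.32), Wnt4 (-1.18), Rspo1 (-1.14), Msx1 (-0.89) and Axin2 (-0.66). Wnt4, the ovarian pathway ligand, read 8.86, 8.24 and 8.50 in XY arrays, against 9.80, 9.60 and 9.74 in XX arrays (adjusted p = 7.71e-04). Rspo1, a secreted amplifier of WNT signals, read 8.78, 8.23 and 8.77 in XY, against 9.59, 10.03 and 9.61 in XX (adjusted p = 4.27e-04). All XY arrays lay below all XX arrays in both genes, by less than for Fst and Bmp2.

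Foxl2, a transcription factor that maintains granulosa cells, read 6.08, 6.02 and 6.35 in XY, against 6.27, 6.04 and 6.31 in XX, with overlapping groups (adjusted p = 0.999). All its readings lay below the median of all genes in XY (6.7122 to 6.7623) and XX arrays (6.7822 to 6.8039), where RMA gives no detection call. Runx1, a transcription factor known in pre-granulosa cells, differed by -0.61 ± 0.17 (SE) with non-overlapping groups and an adjusted p of 0.0538. Lgr5, the receptor for R-spondins, was the pregranulosa list gene that was higher in XY. It read 9.50, 9.13 and 9.03 in XY, against 7.84, 7.76 and 7.97 in XX, a difference of 1.36 ± 0.20 (SE, adjusted p = 1.09e-04).

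Of 20 WNT and beta-catenin pathway genes, 5 were lower in XY and 1 was higher, against 1.95% and 1.73% of all autosomal genes. The lower genes were Wnt4, Rspo1, the nuclear effector Lef1, the feedback target Axin2 and the ligand Wnt5a (-0.57). Lgr5 was the higher gene. Lef1 read 7.77, 7.51 and 7.22 in XY, against 9.09, 9.22 and 8.82 in XX. When any 1 of the 6 arrays was left out, 3 genes of the list were called lower, where 211 to 368 of 19106 autosomal genes were. Beta-catenin itself, Ctnnb1, read 10.60, 10.66 and 10.59 in XY, against 10.58, 10.59 and 10.44 in XX, and did not pass (adjusted p = 0.999).

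Among 19 genes of the BMP, activin and TGF-beta pathway, 3 were lower in XY and none was higher, against 1.95% and 1.73% of autosomal genes. The 3 were Fst, Bmp2 and the BMP target Msx1. The inhibin genes Inha (-0.53 ± 0.20 SE, adjusted p = 0.217) and Inhbb (0.29 ± 0.17 SE, adjusted p = 0.655) did not pass. None of 15 Notch pathway genes passed limma's test after adjustment, 3 were higher in XY at an unadjusted p under 0.05 (4.46% of all autosomal genes), and with the row sets aligned 2 were called higher in XY (3.92% of all autosomal genes). In the Hedgehog and PDGF lists, 2 of 13 genes were higher in XY, where 1.73% of all autosomal genes were. They were the receptors Pdgfra (1.80) and Ptch1 (0.92). Pdgfra read 9.85, 9.54 and 9.55 in XY, against 7.72, 8.15 and 7.66 in XX.

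Pdgfra and Ptch1 are also interstitial or stromal markers. Of 14 such markers, these 2 were higher and the transcription factors Nr2f1 (-0.99) and Nr2f2 (-1.13) were lower in XY. Over all autosomal genes 1.73% were called higher and 1.95% lower. The summed level of the 14 markers ran from 107.8 to 109.3 in XY and from 107.5 to 109.6 in XX arrays. Their part in the result was not tested. Of 9 steroidogenic markers, Cyp11a1, the cholesterol side-chain cleavage enzyme, was lower in XY (-0.97). With the row sets aligned, 2 of the 9 were higher and none was lower, against 3.92% and 2.12% of all autosomal genes. Of 10 coelomic epithelium markers, Podxl (-1.10) was lower in XY, and their summed level ran from 68.7 to 70.1 in XY and from 71.1 to 73.9 in XX. Utf1 (-1.01) was the 1 germ cell marker that passed. In sorted cell pools, fewer cells of a type and less RNA per cell cannot be told apart.

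Factors that build the bipotential gonad were read as a further list. Of 13 such genes, 2 were lower in XY and none was higher, against 1.95% and 1.73% of all autosomal genes. In 6 of the 13 all XY arrays lay below all XX arrays and in 1 above, against 15.6% and 6.24% of all autosomal genes. Lhx9, a LIM homeobox factor needed to form the gonad, read 9.98, 9.65 and 8.95 in XY, against 11.08, 11.25 and 11.20 in XX (difference -1.65 ± 0.21 SE, adjusted p = 2.73e-05). Emx2, a homeobox factor of the early gonad, read 7.98, 7.97 and 7.50 in XY, against 8.83, 8.81 and 8.73 in XX. Wt1 (-0.18), Gata4 (0.20) and Zfpm2 (0.17) did not pass, and Nr5a1, the nuclear receptor SF1, differed by 0.58 ± 0.19 (SE) with non-overlapping groups and an adjusted p of 0.101.

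Cell cycle genes were described by 2 lists. Of 22 mitotic genes, 7 were higher in XY and none was lower, against 1.73% and 1.95% of all autosomal genes. Their median difference was 0.66. In 16 of the 22 the groups did not overlap with XY above, against 6.24% of all autosomal genes. The 7 called genes were Kif11 (1.52), Tpx2 (1.20), Bub1 (1.11), Ccna2 (1.00), Cdk1 (0.93), Cenpe (0.87) and Plk1 (0.65). Kif11, a spindle motor, read 7.37, 7.99 and 8.20 in XY, against 6.03, 6.13 and 6.85 in XX. The count depended on single arrays: 1 of the 22 was called without XX replicate 2, 1 without XY replicate 2, and 4 to 7 without any other array. Of 19106 autosomal genes, 221 were called higher without XX replicate 2, 221 without XY replicate 2, and 237 to 302 without another array. The mitotic count was 2 when only the 6 arrays were fitted, where 283 of all autosomal genes were higher. With the row sets aligned it was 11, against 3.92% of all autosomal genes. At 12.5 and 13.5 dpc all 22 were called higher in XY, where 10.2% and 8.45% of all autosomal genes were. The later XY cells are of another line and strain.

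In the G1 and DNA replication list of 19 genes, 2 were higher and 2 were lower in XY. All autosomal genes gave 1.73% higher and 1.95% lower. The higher genes were the D-type cyclins Ccnd1 (1.42) and Ccnd2 (0.62), and the lower genes were the cyclin-dependent kinase inhibitors Cdkn1b (-1.95) and Cdkn1c (-0.84). Cdkn1b, the inhibitor p27, read 10.13, 9.94 and 8.96 in XY, against 11.74, 11.61 and 11.53 in XX. Ccnd1 read 8.63, 9.01 and 9.39 in XY, against 7.81, 7.19 and 7.79 in XX. The groups did not overlap in either gene, with all XY arrays below XX for Cdkn1b and above XX for Ccnd1.

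Retinoic acid and matrix genes completed the lists. Of 16 retinoic acid pathway genes, Aldh1a1, a retinaldehyde dehydrogenase, was higher in XY at 9.96, 10.26 and 10.27, against 7.44, 7.48 and 7.55 in XX. The Aldh1a1 promoter window shown above held 3 TCF/LEF matches, and the window of its second start held none. Which start these cells use was not tested. Dhrs3, which reduces retinaldehyde, was lower (-1.09), and Cyp26b1, the retinoic acid degrading enzyme, did not pass (0.59 ± 0.21 SE, adjusted p = 0.161). Of 16 basement membrane and matrix genes, Lama4, Col18a1 (1.29) and Sparc (1.03) were higher and none was lower. For both lists, the shares over all autosomal genes were 1.73% higher and 1.95% lower.

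**Figure D3:**
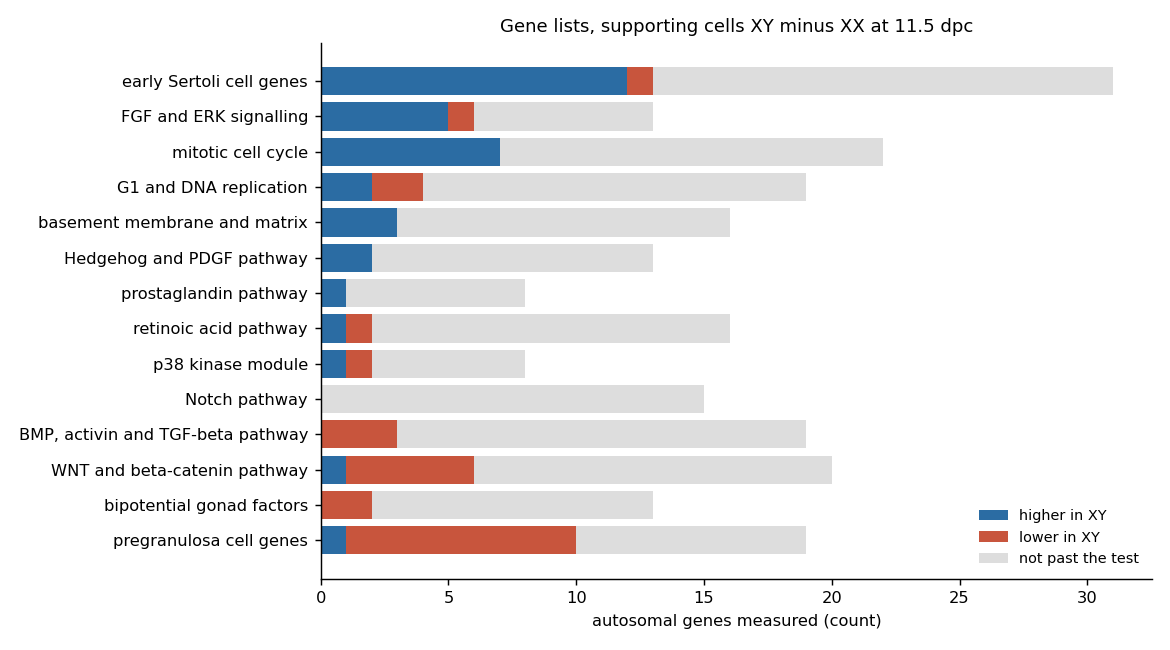
Number of autosomal genes in each of 14 lists (horizontal axis) that were higher in XY, lower in XY or not past the test in supporting cells at 11.5 dpc. The early Sertoli list has 12 higher and 1 lower of 31 genes, the pregranulosa list 1 higher and 9 lower of 19, and the Notch list none of 15. Among all autosomal genes 1.73% were called higher and 1.95% lower. The lists were chosen with earlier results of these data known.

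The promoter letters were counted over all called genes. The RefSeq table gave 351 windows for 252 of the 330 higher genes and 376 windows for 299 of the 373 lower genes. AACAAT or its reverse complement was in 5.41% of the windows of higher genes, 6.91% of those of lower genes and 7.43% of all 18383 autosomal windows. CCGGAA, core letters of an ETS site, was in 10.5%, 12.5% and 15.9% of the same sets, and TCAAAG in 11.1%, 11.7% and 12.4%. Both strands were searched, no match of 1 motif is a match of another, and only the 250 bases before each start were read.

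The genes called at 11.5 dpc were then read at the later stages. At 12.5 dpc, 261 of the 330 higher genes (79.1%) were called higher in XY, where 10.2% of all autosomal genes were, and 9 were called lower. At 13.5 dpc, 229 (69.4%) were called higher, against a background of 8.45%, and 19 were called lower. Of the 373 lower genes, 245 (65.7%) were called lower at 12.5 dpc (background 5.78%) and 208 (55.8%) at 13.5 dpc (background 5.92%), with 2 and 11 called higher. Called the same way at both later stages were 225 of the higher and 195 of the lower genes. These later comparisons share no array with the 11.5 dpc one, but the fit shares 1 estimate of the spread, and the later XY cells are from another line and strain.

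**Figure D4:**
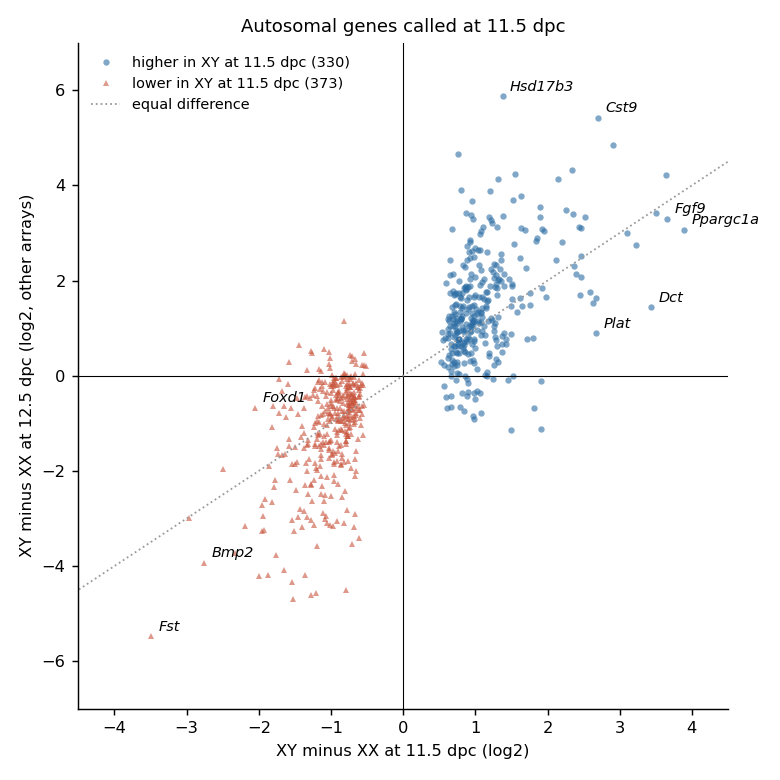
XY minus XX difference at 12.5 dpc (log2, vertical axis) against that at 11.5 dpc (log2, horizontal axis) for the 330 genes called higher (circles) and 373 called lower (triangles) in XY at 11.5 dpc, each point 1 gene. Most points keep their side of 0, with Hsd17b3 at 5.88 and Fst at -5.48 at 12.5 dpc, while Dct and Plat lie below the dotted line of equal difference.

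Genes of the Sertoli program took different courses. Hsd17b3, the enzyme that makes testosterone from androstenedione, averaged 7.33 in XY and 5.95 in XX at 11.5 dpc, 11.50 in XY and 5.62 in XX at 12.5 dpc, and 11.64 in XY and 5.34 in XX at 13.5 dpc. Cst9 differed by 2.70, 5.42 and 5.69 at the 3 stages. Amh, which did not pass at 11.5 dpc, differed by 4.0 ± 0.17 (SE) at 12.5 dpc and 3.92 ± 0.17 (SE) at 13.5 dpc. Of the 31 early Sertoli genes, 29 were called higher in XY at 12.5 dpc and 29 at 13.5 dpc. Among all autosomal genes the shares were 10.2% and 8.45%. The list was chosen with earlier results of these data known, and the later XY cells are of another line and strain.

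Fgf9 and Sox9 did not widen. Fgf9 averaged 10.39 in XY and 6.74 in XX at 11.5 dpc, 9.95 in XY and 6.65 in XX at 12.5 dpc, and 8.84 in XY and 6.82 in XX at 13.5 dpc. Sox9 averaged 11.68 in XY and 8.46 in XX at 11.5 dpc, 11.51 in XY and 8.77 in XX at 12.5 dpc, and 11.03 in XY and 8.72 in XX at 13.5 dpc. The Etv5 difference was 3.64, 4.21 and 4.03 at the 3 stages.

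Some of the largest differences at 11.5 dpc were smaller later. The change of the difference was tested with limma and passed for 4.96% of autosomal genes at 12.5 dpc and 4.99% at 13.5 dpc. Of the genes higher in XY at 11.5 dpc, 37 had a smaller or reversed and 69 a larger positive difference at 12.5 dpc, and of those lower in XY, 34 had a smaller or reversed and 64 a larger negative one. At 13.5 dpc the counts were 51 and 58 for the genes higher in XY, and 50 and 54 for those lower in XY. These tests share the 11.5 dpc arrays with the call itself. Dct averaged 10.61 in XY and 7.17 in XX at 11.5 dpc, 8.51 in XY and 7.07 in XX at 12.5 dpc, and 6.75 in XY and 6.33 in XX at 13.5 dpc. The Plat difference was 2.67, 0.89 and -0.04 at the 3 stages, with the XX mean at 7.24, 8.50 and 8.81. Aldh1a1 went up in both sexes, with XY means of 10.17, 11.23 and 11.46 and XX means of 7.49, 9.59 and 10.45. Foxd1 averaged 7.17 in XY and 9.22 in XX at 11.5 dpc, 6.06 in XY and 6.73 in XX at 12.5 dpc, and 5.92 in XY and 6.06 in XX at 13.5 dpc.

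The genes of the ovarian pathway took different courses too. The Fst difference was -3.49, -5.48 and -5.30 at the 3 stages, that of Bmp2 -2.76, -3.93 and -3.64, and that of Rspo1 -1.14, -2.49 and -2.19. Wnt4 differed by -1.18, -1.20 and -1.12. Irx3 (-1.32, -2.49 and -2.74), Cdkn1b (-1.95, -2.95 and -2.57), Lef1 (-1.55, -1.85 and -1.66) and Axin2 (-0.66, -1.59 and -1.97) were called lower in XY at all 3 stages, while Msx1 (-0.89, -0.40 and -0.41) did not pass at the later ones. Lhx9 averaged 9.53 in XY and 11.18 in XX at 11.5 dpc, 6.79 in XY and 10.87 in XX at 12.5 dpc, and 6.45 in XY and 10.12 in XX at 13.5 dpc. Lgr5, higher in XY at 11.5 dpc, differed by 0.50 ± 0.20 (SE, adjusted p = 0.101) at 12.5 dpc and by -0.86 ± 0.20 (SE, adjusted p = 0.0036) at 13.5 dpc.

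**Figure D5:**
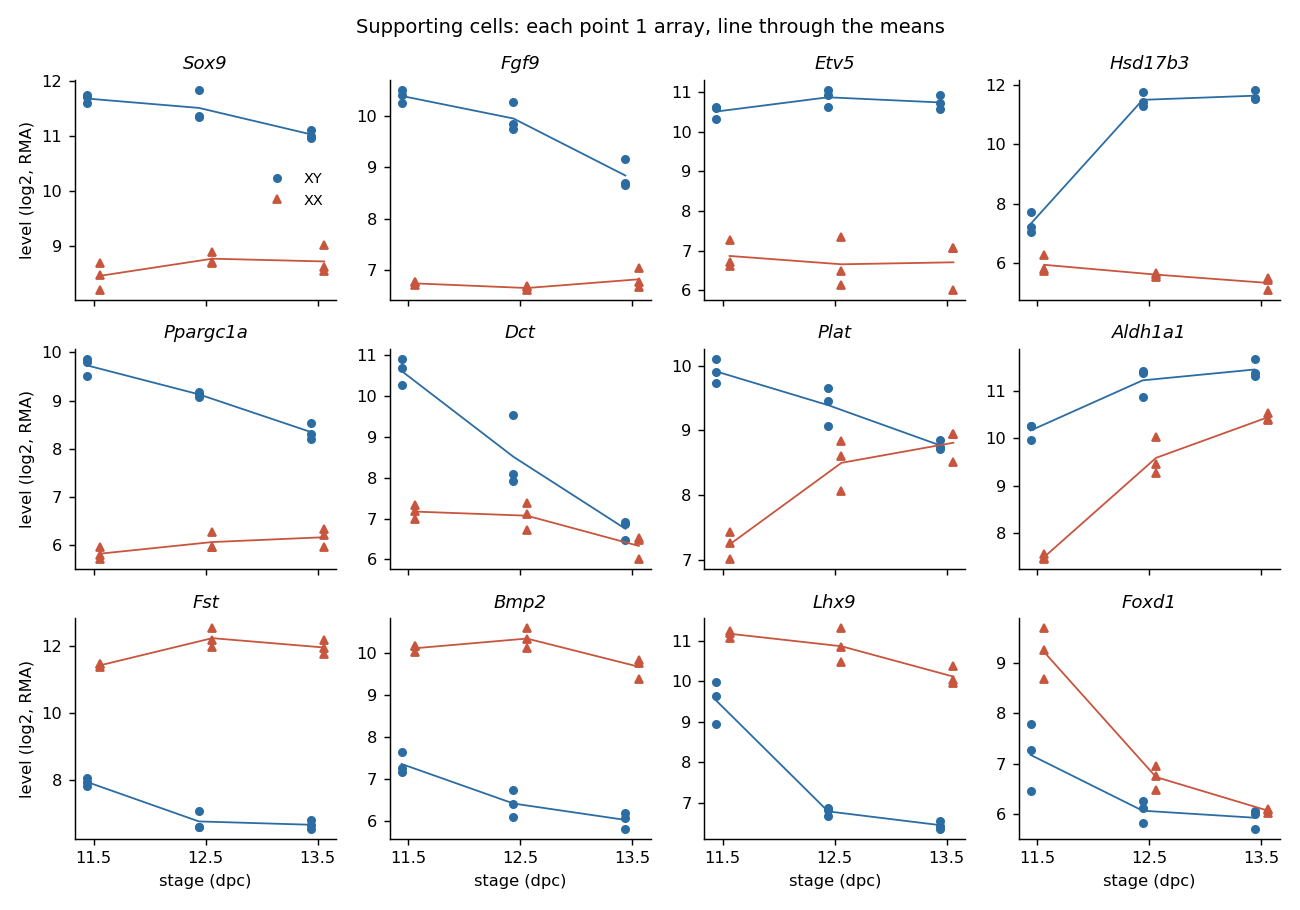
Expression level (log2, RMA, vertical axes) of 12 genes in XY (circles) and XX (triangles) supporting cells at 3 stages from 11.5 to 13.5 dpc (horizontal axis), with 3 arrays per sex and stage and a line through the means. Hsd17b3 in XY averages 7.33, 11.50 and 11.64, Dct in XY 10.61, 8.51 and 6.75, and Lhx9 in XY 9.53, 6.79 and 6.45. XY cells at 12.5 and 13.5 dpc are from another line and strain.

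Germ cells sorted at the same stage were compared between the sexes in a limma fit of the 12 arrays at 11.5 dpc. In germ cells 1 of 19106 autosomal genes (0.00523%) was called, and 650 (3.40%) had an unadjusted p under 0.05. The same fit, run for supporting cells after the data were seen, called 572 genes (2.99%). The row sets of the germ cell arrays lay 0.2221 to 0.6919 apart in their medians, wider than in the supporting cell arrays, and with the row sets aligned 5 genes (0.0262%) were called in germ cells. None of the 330 higher or 373 lower genes of supporting cells was called in germ cells. At an unadjusted p under 0.05, 5 of the 330 were higher and 8 were lower in XY germ cells, and 7 of the 373 were higher and 6 were lower. The median XY minus XX differences in germ cells were 0.0 for the 330 and 0.02 for the 373. The difference between supporting and germ cells was tested itself, and 111 of the 330 and 102 of the 373 genes passed in the direction of the supporting cells, with 219 (1.15%) called over all autosomal genes. That test uses the supporting cell arrays on which the genes were called.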

How the data were processed

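Sorted cell RNA was labelled and hybridised on Affymetrix Mouse Gene 1.0 ST arrays. The deposited table gives a log2 level for each probe set, which per the submitters' processing notes comes from RMA, with no version stated. RMA subtracts background, adjusts the arrays to each other and combines the probes of a set. It compresses low levels, so differences of dim genes may be understated. The number of arrays, 3 per group, limits the precision. No slide or scan batch is given in the sources used here.

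Of 35557 probe sets, 21789 had 1 gene symbol in the platform annotation, and 21698 of these matched the reference gene table of GRCm38.p6. They gave 19938 genes, 19106 of them autosomal. For the 999 genes with several probe sets, that with the highest mean stood for the gene. Within each array the values fall on up to 3 linear scales by table row, a step the labels do not describe, and the medians of these row sets lay 0.0157 to 0.0726 apart in the 6 arrays compared and up to 0.7311 apart in later supporting cell arrays.

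The 18 supporting cell arrays were fitted with limma 3.58.1 in R 4.3.3 as 6 group means with 12 residual degrees of freedom, and germ cells were compared in a fit of the 12 arrays at 11.5 dpc. Dim genes were kept. Genes were named where they were among the 15 largest called, non-overlapping differences in each direction, or belonged to a list. The members and lists were chosen with earlier results of these data known. Promoters are RefSeq windows of GRCm38.p6. Alternatives covered the arrays fitted, scaling, row sets aligned, a filter on dim genes, array weights, probe set choice and single supporting cell arrays left out.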

Additional observations from a re-analysis of the deposited data

Results flagged for a closer look

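For genes with the largest differences at 11.5 dpc, the XY minus XX difference itself was tested between cell types or stages with limma. The value given is a log2 difference of differences, and genes are listed only where the test passed. All these tests reuse the 11.5 dpc arrays on which the genes were chosen, which favours a call against germ cells and a smaller difference at a later stage. The supporting cell difference exceeded that of germ cells, in the positive direction, for Ppargc1a (3.72), Fgf9 (3.80), Etv5 (3.42), Lama4 (3.77), Dct (3.48), Sox9 (3.17), Scrn1 (3.37), Mybl1 (2.75), Aldh1a1 (2.50), Plat (2.45), Ppp1r3c (2.72), Gatm (2.67), Vcan (2.45) and Trank1 (2.36). It exceeded that of germ cells in the negative direction for Fst (-3.73), Slc7a11 (-3.13), Bmp2 (-2.71), Vmn1r35 (-2.46), Ereg (-2.33), Adm (-1.86), Foxd1 (-1.78), Sprr2d (-1.90), Gxylt2 (-1.74), Pde1a (-2.19), Gabra4 (-1.81), Pcdh18 (-2.12) and Klhl5 (-1.94). Adjusted p ran from 1.11e-08 for Fgf9 to 0.0443 for Foxd1.

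Relative to 11.5 dpc, the difference at 12.5 dpc was larger among genes higher in XY for Mybl1 (1.95) and Cst9 (2.72), and smaller for Ppargc1a (-0.83), Dct (-2.0), Aldh1a1 (-1.04), Plat (-1.78) and Ppp1r3c (-1.10). Among genes lower in XY it was larger in size for Fst (-1.98), Bmp2 (-1.17), Adm (-0.98), Sprr2d (-2.22), Pde1a (-1.31), Gabra4 (-1.32) and Pcdh18 (-2.32), and smaller for Foxd1 (1.37). Adjusted p ran from 4.19e-06 for Pcdh18 to 0.0429 for Adm. Relative to 11.5 dpc, the difference at 13.5 dpc was larger among genes higher in XY for Mybl1 (1.18) and Cst9 (2.99), and smaller for Ppargc1a (-1.71), Fgf9 (-1.64), Dct (-3.02), Sox9 (-0.93), Aldh1a1 (-1.66), Plat (-2.71), Ppp1r3c (-1.24) and Gatm (-2.01). Among genes lower in XY it was larger in size for Fst (-1.81), Bmp2 (-0.88) and Pcdh18 (-1.90), and smaller for Slc7a11 (1.41) and Foxd1 (1.91). Adjusted p ran from 6.48e-07 for Plat to 0.0496 for Bmp2. The change at later stages coincides with the change of line and strain in XY cells and cannot be told apart from it.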

How the results depend on the processing

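The 18-array fit called 745 genes at 11.5 dpc, X and Y included. The fit of all 36 arrays called 392 (199 autosomal genes higher and 176 lower), row sets aligned 1217 (748 higher), array weights 2002 (844 and 1050), and the 6 arrays alone 614. Chosen after seeing the data, the 6 arrays with row sets aligned called 403 higher and 167 lower autosomal genes, and the 6 arrays with the replicate block 396 (202 and 174). Leaving out 1 array gave 481 to 709 genes, with 221 to 302 higher and 211 to 368 lower, fewest without XX replicate 2 and, for lower genes, XY replicate 3. Same-numbered XY and XX arrays correlated at -0.04, 0.09 and 0.04 in their deviations, and not every array correlated best with its own number, so the numbers were not taken as pairs. The 18-array fit with the replicate block called 794 genes. At 12.5 dpc the fit called 3192 genes, 2119 with 36 arrays, 4827 with row sets aligned and 1902 with array weights. At 13.5 dpc it called 2878 genes, 4520 with row sets aligned and 6047 with array weights. The change from 11.5 to 12.5 dpc was called for 989 genes, 454 with 36 arrays and 1500 with row sets aligned. The change to 13.5 dpc was called for 1004 genes, 518 with 36 arrays, 1742 with row sets aligned and 3204 with array weights. The difference between supporting and germ cells was called for 233 genes, 120 with 36 arrays, 375 with quantile normalization and 547 with row sets aligned. With 1 supporting cell array left out it was called for 147 to 253 genes, fewest without XX replicate 2. No germ cell array was left out in turn. Germ cells gave 6 genes, X and Y included, and 11 with row sets aligned. Apart from the arrays and genes entering a fit, the cause was not tested. Of 73 named genes, 42 passed in every setting and 0 reversed, and with 36 arrays 19 no longer passed. The filter on dim genes kept 69 of the 73, so the others were not tested in that setting.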

Other observations

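Some genes outside the lists and the 15 largest differences in each direction were chosen after their values were seen. Elmo1, a regulator of cell engulfment and migration, read 7.51, 7.93 and 7.77 in XY supporting cells at 11.5 dpc, against 5.78, 5.52 and 5.47 in XX, and differed by 2.15 then, by 4.14 at 12.5 dpc and by 3.56 at 13.5 dpc. The tyrosine kinase gene Ptk2b followed the same order, with differences of 2.34, 4.32 and 4.08. Mmp2, a matrix metalloproteinase, read 9.41, 9.27 and 9.44 in XY, against 7.56, 7.15 and 7.56 in XX. In the other direction, the collagen gene Col12a1 differed by -1.52, -4.70 and -4.13 at the 3 stages and the BMP ligand Bmp5 by -1.54, -4.33 and -3.61. All 5 genes passed limma's test at each stage in the 18-array fit, but with only the 6 arrays at 11.5 dpc Col12a1 (adjusted p = 0.0694) and Bmp5 (adjusted p = 0.0557) did not, and the later XY cells are of another line and strain.

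Small RNA genes and chemosensory receptor genes were counted separately. Of 318 small RNA genes, 5 were called higher and 5 lower in XY at 11.5 dpc, and of 1200 chemosensory receptor genes 0 were called higher and 5 lower, where 1.73% of all autosomal genes were called higher and 1.95% lower. The miRNA gene Mir18, named after its values were seen, read 7.17, 6.41 and 7.39 in XY, against 4.89, 5.12 and 5.25 in XX. Its difference was 1.90 at 11.5 dpc (adjusted p = 2.95e-04), -1.12 at 12.5 dpc (adjusted p = 0.0113) and -1.03 at 13.5 dpc (adjusted p = 0.0214). The array reads the gene and does not tell a mature miRNA from its precursor.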
